A study of Homo sapiens with 10 samples.

Results

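The transcripts of 35 lysosomal genes were compared between human lung cancer cells labelled senescent after discodermolide, a drug-resistant line, a derivative of that line and control cells. The genes encode enzymes and membrane proteins of the lysosome, together with the transcription factor TFEB, and were taken from a list of gene names. All 35 were found, of 18279 genes with a probe set of their own, and NEU1, which alone had more than 1 probe set, was read from its brightest on average.

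Total RNA of cultured cells had been measured on 10 Affymetrix arrays, 1 per sample. A549 is a human lung adenocarcinoma line, and discodermolide stabilises microtubules. A549 in discodermolide received the drug at 32 nM and is labelled senescent (n = 2). AD32 4E-BP1 received 0.01% DMSO and is labelled sensitive (n = 1), and its name includes 4E-BP1, the product of EIF4EBP1, which holds back translation at capped mRNAs. AD32 was grown in discodermolide at 32 nM and is labelled resistant (n = 3). A549 in DMSO received 0.01% DMSO and is labelled sensitive (n = 4). All groups were grown in RPMI medium with serum. The length of the treatments, the derivation of AD32, the number of clones it holds and the construct in AD32 4E-BP1 are not stated in those labels. AD32 differed from A549 in DMSO, and from AD32 4E-BP1, in drug as well as in line, and these cannot be told apart. The numbered samples are called biological replicates with no word on how they were grown apart, so the p-values measure only the spread between these arrays, whose number limits the precision.

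Lysosomes break down proteins, glycans, lipids and nucleic acids with hydrolases that work at acid pH, which a proton pump in the lysosomal membrane maintains. Many of the genes carry an E-box element in their promoters, the CLEAR element, which is bound by TFEB and its relatives TFE3 and MITF when these enter the nucleus. Senescent cells are commonly stained for the activity of lysosomal beta-galactosidase, the product of GLB1, at a pH above its optimum.

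The promoter sequences were examined first, because this element is what many lysosomal genes are known to share. RefSeq promoter windows on GRCh38.p14, which run from 250 bases before a transcript's start to 50 bases after it, were at hand for 25 of the 35 genes. ARSA, ASAH1, CTSB, CTSS, HEXA, LAMP2, MANBA, NAGLU, PSAP and SGSH had no entry in the table. Windows were searched for the 6-base E-box CACGTG, for its 8-base form TCACGTGA and for its 10-base form GTCACGTGAC. Each motif reads the same on both strands, and the shorter ones lie within the longer ones, so their counts overlap. At least 1 window held the E-box in 9 of the 25 genes (36.0%), which were LAMP1, CTSA, CTSD, GAA, GALNS, MCOLN1, NEU1, ARSB and CD63. Of all 14197 measured genes with windows, 10.95% had the E-box. Counted by window, it was in 22.0% of the 41 windows of these genes and in 7.26% of all 35116 windows. The 8-base form was in 12.2% of the windows of the lysosomal genes and in 0.98% of all windows, and the 10-base form in 7.3% and 0.35%. By gene, the 8-base form was in 20.0% of the 25 and in 1.72% of the measured genes. A match describes the letters of a window and not a site in use.

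The 5 genes with the 8-base form are shown because they carry the longest matches, as the 250 bases upstream of the start, 5′ to 3′, with each E-box in capitals. The regions were chr13:113296989-113297238 on the plus strand for LAMP1, chr20:45891085-45891334 on the plus strand for CTSA, chr17:80101331-80101580 on the plus strand for GAA, chr16:88856948-88857197 on the minus strand for GALNS and chr19:7522374-7522623 on the plus strand for MCOLN1.
LAMP1: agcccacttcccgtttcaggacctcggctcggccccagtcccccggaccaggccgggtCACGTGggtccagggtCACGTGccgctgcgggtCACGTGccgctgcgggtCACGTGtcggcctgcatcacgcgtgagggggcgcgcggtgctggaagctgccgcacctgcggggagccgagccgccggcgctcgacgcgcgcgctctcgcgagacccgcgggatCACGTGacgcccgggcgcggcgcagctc
CTSA: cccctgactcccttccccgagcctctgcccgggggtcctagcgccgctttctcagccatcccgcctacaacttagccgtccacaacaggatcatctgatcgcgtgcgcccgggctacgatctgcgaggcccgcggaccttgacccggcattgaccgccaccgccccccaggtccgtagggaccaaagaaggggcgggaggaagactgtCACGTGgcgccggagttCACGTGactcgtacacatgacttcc
GAA: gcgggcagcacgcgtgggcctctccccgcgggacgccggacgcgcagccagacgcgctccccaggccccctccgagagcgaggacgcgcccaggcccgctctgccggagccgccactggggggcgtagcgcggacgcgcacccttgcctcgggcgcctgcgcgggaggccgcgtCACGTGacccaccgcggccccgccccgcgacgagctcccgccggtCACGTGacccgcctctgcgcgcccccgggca
GALNS: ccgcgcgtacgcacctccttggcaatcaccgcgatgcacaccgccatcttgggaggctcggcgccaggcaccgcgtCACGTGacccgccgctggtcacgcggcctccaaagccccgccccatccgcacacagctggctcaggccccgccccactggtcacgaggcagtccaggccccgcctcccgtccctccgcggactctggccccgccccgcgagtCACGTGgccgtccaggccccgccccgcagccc
MCOLN1: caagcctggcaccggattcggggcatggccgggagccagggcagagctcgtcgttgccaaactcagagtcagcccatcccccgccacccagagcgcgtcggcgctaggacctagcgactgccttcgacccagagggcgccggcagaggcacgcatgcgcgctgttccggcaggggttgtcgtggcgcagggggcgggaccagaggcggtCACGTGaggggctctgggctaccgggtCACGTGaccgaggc

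LAMP1 held 4 E-boxes in a row with first bases at -192, -176, -159 and -142 from the start, and 8-base forms whose E-boxes began at -28 and across the start at -1. GAA had 10-base forms with E-boxes at -76 and -31. GALNS had a 10-base form at -174 and a plain E-box at -32, and MCOLN1 an 8-base form at -41 and a 10-base form at -14. CTSA had a plain E-box at -42 and an 8-base form at -25.

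**Figure D1:**
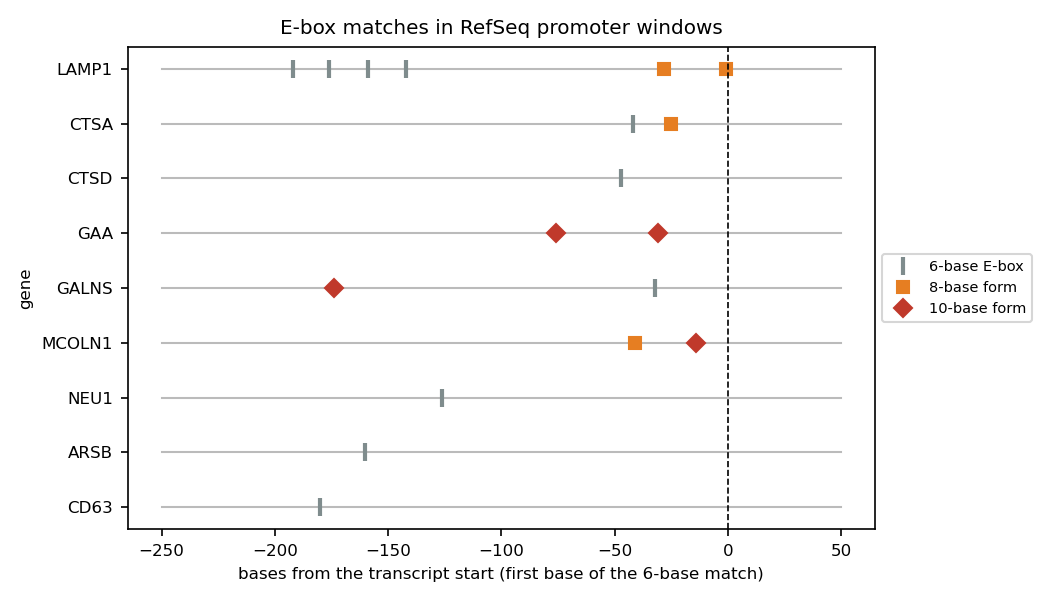
Position of E-box matches (x axis, bases from the transcript start, first base of the 6-base match) in the promoter windows of the 9 lysosomal genes that have one (rows), with the 6-, 8- and 10-base forms as different symbols. LAMP1 has 6 matches, and GAA is the gene with a pair of 10-base forms.

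All levels below are log2 signals as deposited, which carry no detection call, and signals of different genes were not compared as amounts of transcript. In bulk RNA, fewer cells with a transcript and less of it per cell cannot be told apart. Of 6 epithelial markers, KRT8 (12.67 to 13.73 over the 10 arrays), KRT18 (13.03 to 14.002) and CDH1 (8.46 to 10.40) were high on all arrays. KRT7 spread over 6.997 to 11.84, KRT19 was at 5.71 to 6.28, under the array medians of 6.50 to 6.63, and EPCAM was at 3.30 to 3.87, under each array's lower quartile, which ranged over 4.77 to 4.94. The mean of 8 leukocyte markers was 4.23 to 4.67, with PTPRC at 2.77 to 3.20, that of 4 endothelial markers was 4.45 to 4.85, and that of 6 fibroblast markers was 5.34 to 6.11. EIF4EBP1 was at 11.61 on the AD32 4E-BP1 array, against 8.93, 7.99 and 8.63 in AD32, which is 8.52-fold higher (adjusted p = 0.00708, or 0.150 when only these groups were fitted). Several arrays stood apart from their groups. A549 DMSO replicate 1 correlated at 0.956 to 0.961 with the other DMSO arrays and at 0.976 to 0.978 with the discodermolide arrays, over all genes. AD32 replicate 3 correlated at 0.959 and 0.965 with the other AD32 arrays and at 0.975 to 0.981 with A549 DMSO replicates 2 to 4. The AD32 4E-BP1 array correlated at 0.989 to 0.996 with those DMSO arrays and at 0.944 to 0.983 with the AD32 arrays. Those DMSO arrays correlated at 0.991 to 0.997 with each other. By this measure the AD32 4E-BP1 array was about as close to them as they were to each other. Results are therefore given with and without A549 DMSO replicate 1 and AD32 replicate 3 where these decide them. Both arrays were singled out after their values were seen, so calls gained without them are descriptions.

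As a group, the lysosomal genes had their highest signals in A549 in discodermolide. The mean over the 35 genes was 9.60 and 9.66 on the discodermolide arrays, 9.06 on the AD32 4E-BP1 array, 9.06, 8.93 and 8.87 in AD32, and 9.42, 8.97, 8.89 and 8.90 in A549 in DMSO. Both discodermolide arrays were above every other array, and A549 DMSO replicate 1 was next. The mean of 28 genes of G2/M and mitosis was 6.60 and 6.84 on the discodermolide arrays, 9.82 on the AD32 4E-BP1 array, 5.21, 6.20 and 9.63 in AD32, and 6.77, 9.89, 10.03 and 9.99 in A549 in DMSO. The same DMSO replicate 1 that was high for the lysosomal genes was thus as low for mitotic genes as the discodermolide arrays. AD32 replicates 1 and 2 were also low for mitotic genes. Their lysosomal means were 9.06 and 8.93, beside 8.89 to 8.97 on DMSO replicates 2 to 4. The AD32 means include GALC, which was low on all AD32 arrays. The part of cell proliferation in the lysosomal differences was not tested.

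**Figure D2:**
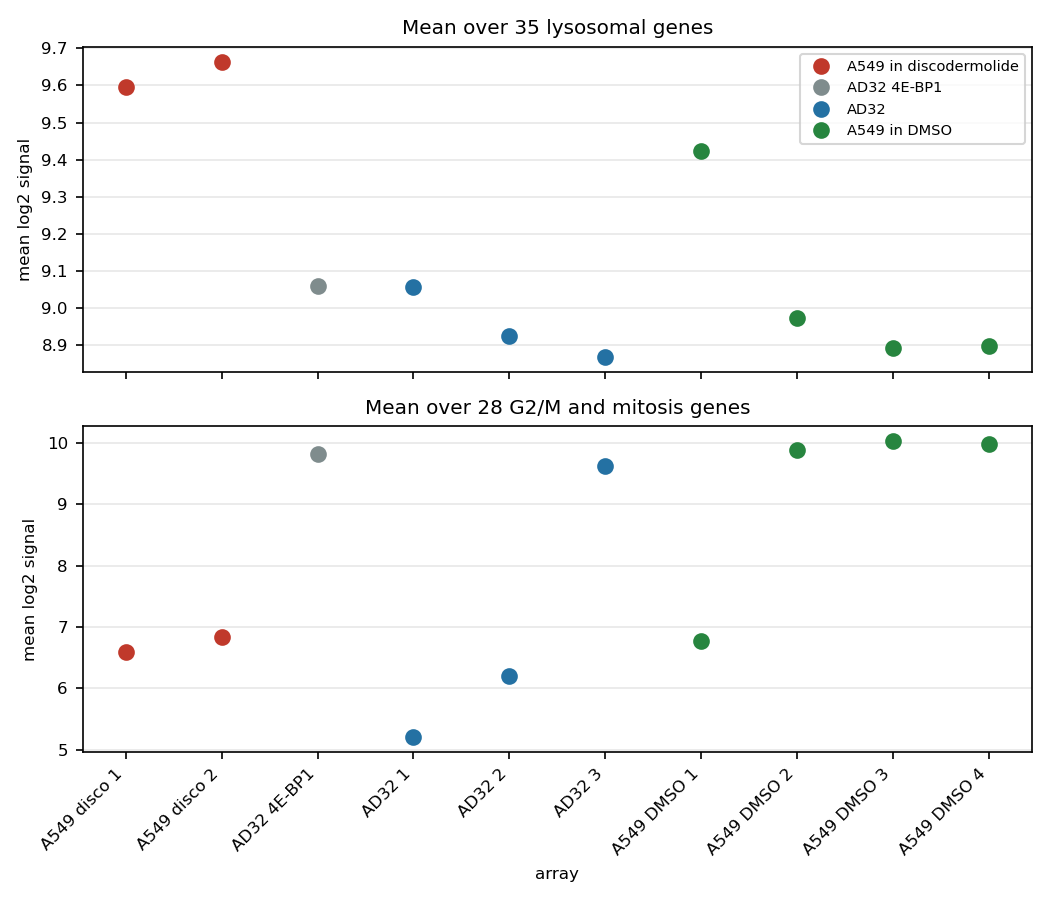
Mean log2 signal (y axes) of the 35 lysosomal genes (top) and of 28 genes of G2/M and mitosis (bottom) on each array (x axis), coloured by group. The discodermolide arrays (9.60 and 9.66) lie above all others for the lysosomal genes, and A549 DMSO replicate 1 (9.42) lies apart from the other DMSO arrays in both panels.

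The first comparison asked which lysosomal transcripts differed in A549 cells given discodermolide from those given DMSO. The difference was above 0 for 32 of the 35 genes, with a median of 0.62 on the log2 scale, against 0.02 over all genes. No gene of the list passed the threshold of an adjusted p of 0.05 in limma with Benjamini-Hochberg adjustment over all genes, in either direction, where 0.35% of all genes were called higher and 0.0219% lower. At an unadjusted p of 0.05, 17 were higher and 0 lower, where 8.24% and 2.88% of all genes were. For 17 of the 35 genes both discodermolide arrays were above all DMSO arrays, against 15.2% of all genes, and for 0 both were below, against 7.71%. Without AD32 replicate 3, 0 of the 35 were called in either direction, where 0.656% of all genes were called higher and 0.0766% lower.

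A549 DMSO replicate 1 decided these calls. It was above the other DMSO arrays for 26 of the 35 genes (74.3%), against 41.5% of all genes. Both discodermolide arrays were above DMSO replicates 2 to 4 for 30 of the 35 genes (85.7%), against 27.6% of all genes. Without that replicate, 11 of the 35 genes were called higher and 0 lower, where 2.53% of all genes were called higher and 0.99% lower. They were FUCA1 (3.19-fold, adjusted p = 0.00404), GLB1 (2.38-fold, 0.0114), HEXA (2.23-fold, 0.0137), NEU1 (1.89-fold, 0.0203), CTSD (2.54-fold, 0.0251), MANBA (2.00-fold, 0.0307), LAMP2 (1.60-fold, 0.0430), GAA (2.65-fold, 0.0431), SCARB2 (1.82-fold, 0.0436), PSAP (2.27-fold, 0.0453) and CTSZ (1.53-fold, 0.0485). These are 6 glycosidases, the proteases CTSD and CTSZ, the membrane proteins LAMP2 and SCARB2, and the sphingolipid activator precursor PSAP. A549 DMSO replicate 1 was singled out after its values were seen. Leaving out the control nearest the treated arrays widens differences and narrows the spread, so these calls are no separate support. No call was gained when any other single array was left out.

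**Figure D3:**
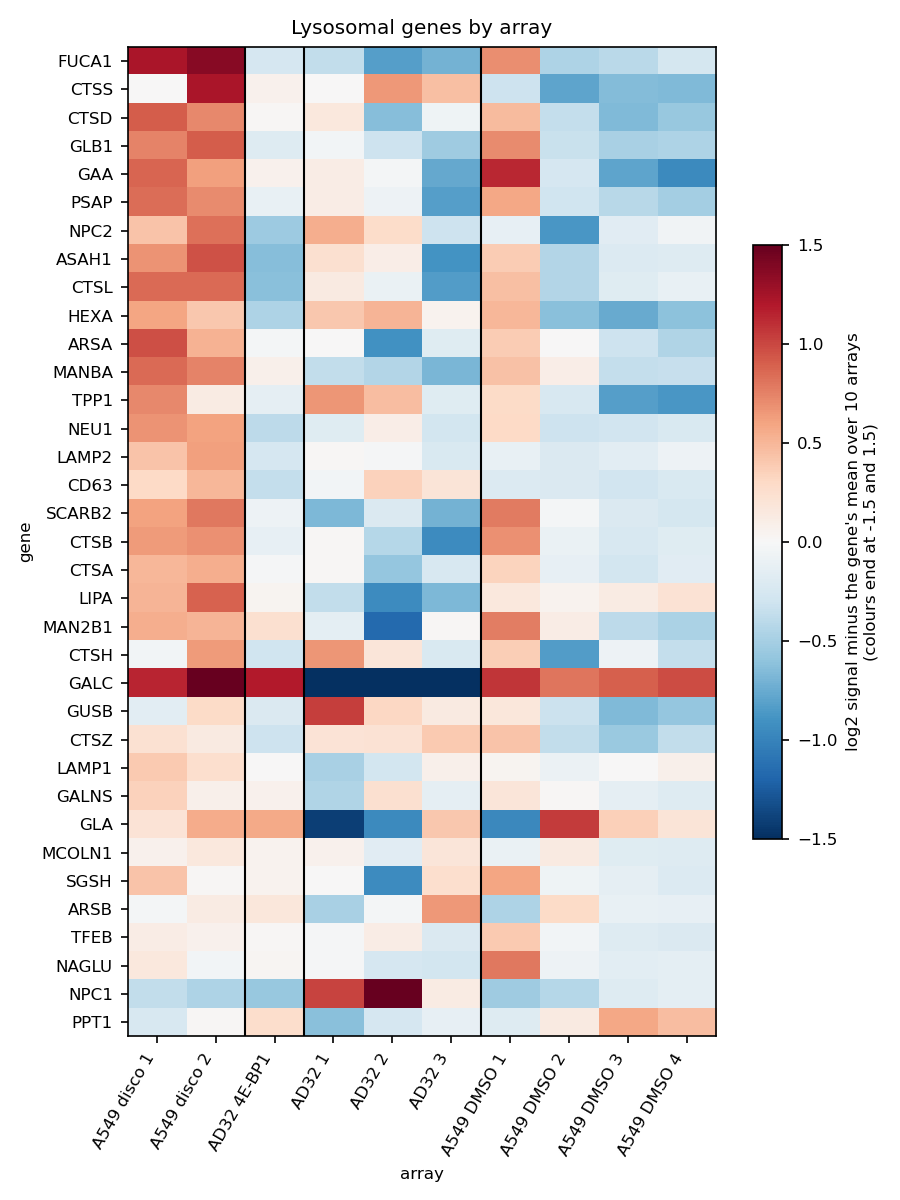
Log2 signal of each of the 35 lysosomal genes (rows) on each of the 10 arrays (columns, vertical lines between groups), minus the gene's own mean over the arrays, with colours ending at -1.5 and 1.5. Most rows are red on the 2 discodermolide arrays and many on A549 DMSO replicate 1, and GALC is blue on all 3 AD32 arrays.

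The second comparison set A549 in discodermolide against AD32, which was grown in the same concentration of the drug and is labelled resistant. Again 32 of the 35 genes were higher in A549 in discodermolide by value, with a median of 0.60, against -0.01 over all genes. GALC, LIPA, FUCA1 and MANBA were called higher and 0 genes lower, 4 of 35 where 2.46% of all genes were called higher and 1.28% lower. The arrays did not overlap for 18 genes higher and 1 lower, against 18% and 14.4% of all genes. Without A549 DMSO replicate 1, which enters this comparison only through the pooled spread, 13 were called higher and 0 lower, where 4.46% and 2.19% of all genes were. Without AD32 replicate 3, 5 were called higher, where 3.36% of all genes were, with LAMP1 (1.63-fold, adjusted p = 0.0377) added, and 1 lower, NPC1, where 2.56% were. Without discodermolide replicate 1, discodermolide replicate 2 or AD32 replicate 2 the count was 2, 1 and 2, where 0.689%, 0.421% and 1.5% of all genes were called higher. For 14 genes (40.0%) both discodermolide arrays were above all 3 AD32 and all 4 DMSO arrays, against 6.8% of all genes. They were LAMP1, LAMP2, CTSA, CTSD, CTSL, GLB1, FUCA1, GALC, LIPA, ASAH1, NEU1, MANBA, ARSA and PSAP. Both comparisons share the discodermolide arrays.

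**Figure D4:**
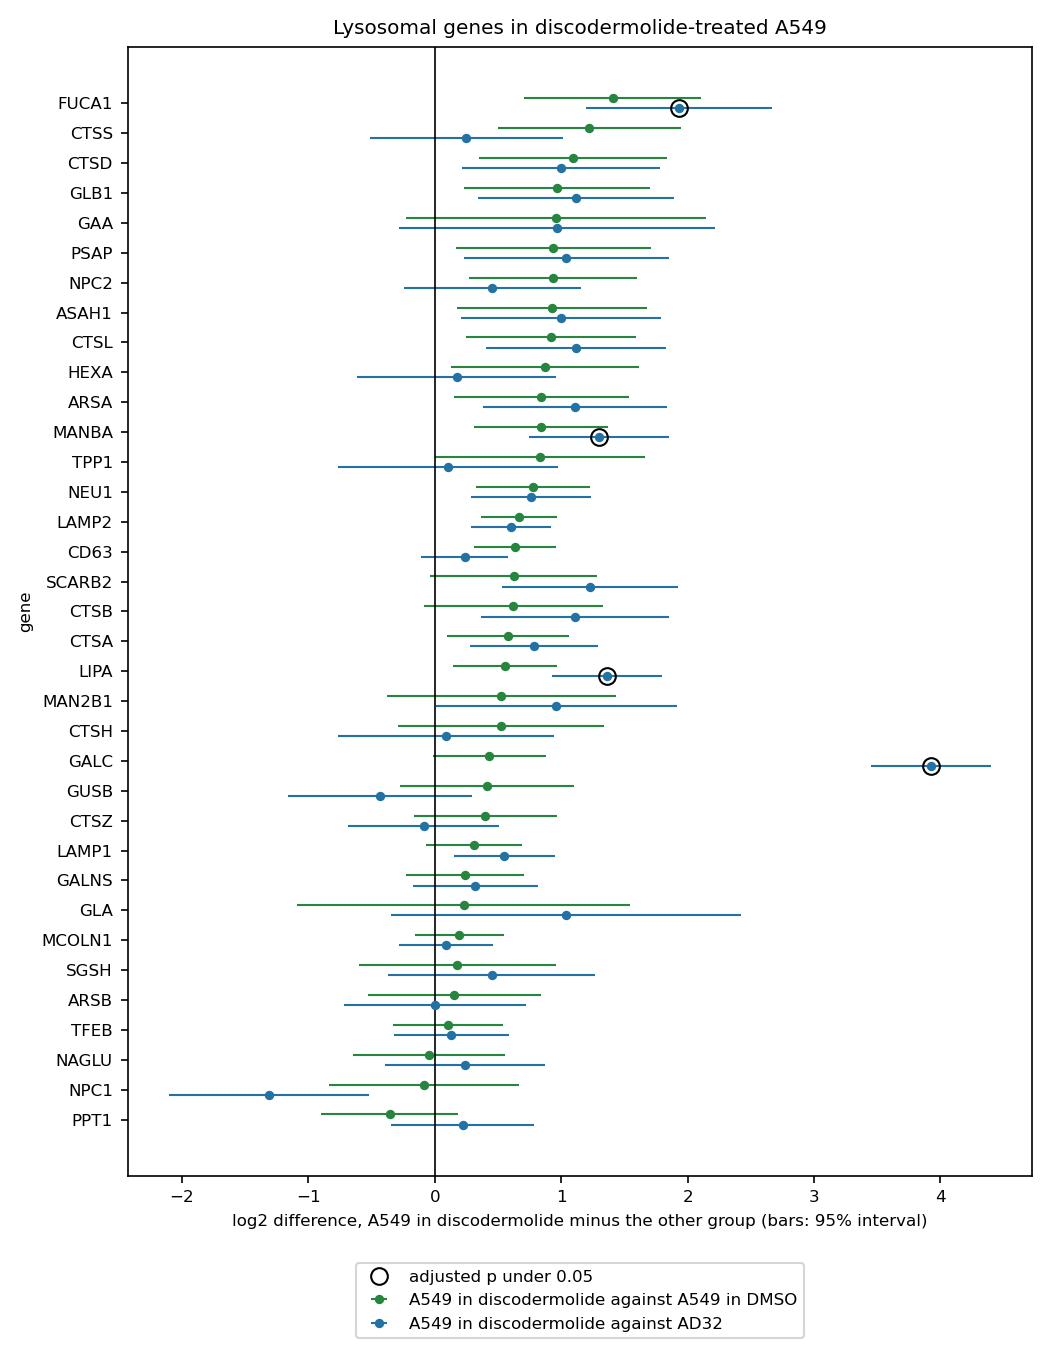
Log2 difference (x axis, bars are 95% intervals of the limma fit) of A549 in discodermolide from A549 in DMSO (green) and from AD32 (blue) for each of the 35 lysosomal genes (rows), with rings around adjusted p under 0.05. Rings mark GALC, LIPA, FUCA1 and MANBA against AD32 and no gene against DMSO.

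The third comparison set AD32 against A549 in DMSO, and here the list was not shifted one way. The difference was above 0 for 14 genes and below 0 for 21, with a median of -0.08, against 0.01 over all genes. NPC1 was called higher (1 of 35, where 3.52% of all genes were), and GALC and LIPA lower (2 of 35, where 2.19% of all genes were). The arrays did not overlap for NPC1, CTSS and CD63 in the higher direction, against 8.9% of all genes, and for GALC, LIPA and MANBA in the lower direction, against 6.48%. Without A549 DMSO replicate 1, 4 genes were called higher, where 5.7% of all genes were, and 3 lower, where 6.14% were. Those added were HEXA (1.98-fold, adjusted p = 0.00595), CTSZ (1.63-fold, 0.00984) and GUSB (2.02-fold, 0.0321), all higher in AD32, and PPT1, which was 1.65-fold lower (0.0364). Without AD32 replicate 3 the counts were 1 higher and 2 lower, where 6.3% and 4.45% of all genes were called.

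Among the glycosidases, GALC, the enzyme that removes galactose from galactosylceramide, separated AD32 from every other sample. Its level was 8.28 and 8.74 in A549 in discodermolide, 8.33 on the AD32 4E-BP1 array, 4.64, 4.26 and 4.85 in AD32, and 8.21, 7.94, 8.04 and 8.12 in A549 in DMSO. All 3 AD32 arrays, including replicate 3, whose mitotic genes were near the level of A549 DMSO replicates 2 to 4, were close to or under the lower quartile, where a signal distinct from background was not shown, and none of the others did. GALC was therefore 15.2-fold higher in A549 in discodermolide than in AD32 (log2 3.92, SE 0.21, adjusted p = 2.71e-05) and 11.3-fold lower in AD32 than in A549 in DMSO (log2 -3.49, SE 0.18, adjusted p = 1.27e-05), as ratios of signal. Between A549 in discodermolide and A549 in DMSO its difference was 0.43 (SE 0.20, adjusted p = 0.469). Both calls held in each of the 18 alternative settings.

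The neighbours of GALC on chromosome 14, chosen after its values were seen, were the 3 nearest measured genes on each side in the gene order of GRCh38.p14. STON2, SEL1L and FLRT2 on one side and GPR65 and KCNK10 on the other differed by 0.37, 0.33, -0.29, 0.00 and -0.06 between AD32 and A549 in DMSO, with arrays that overlapped. SPATA7 was at 6.81, 7.39 and 6.63 in AD32 and at 6.47, 6.60, 6.46 and 6.40 in A549 in DMSO, a difference of 0.46 without overlap. None of these 6 neighbours had a difference of the size that GALC had. GPR65 and KCNK10 were under the lower quartile in both groups, so a drop like that of GALC could not have shown in them.

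FUCA1, which removes fucose from glycoproteins and glycolipids, was at 9.35 and 9.49 in A549 in discodermolide, 7.88 on the AD32 4E-BP1 array, 7.76, 7.30 and 7.42 in AD32, and 8.82, 7.66, 7.72 and 7.87 in A549 in DMSO. The discodermolide arrays were above all others, and A549 DMSO replicate 1 lay between them and the rest. FUCA1 was 3.81-fold higher in A549 in discodermolide than in AD32 (log2 1.93, SE 0.33, adjusted p = 0.0138). The adjusted p was 0.106, 0.139 and 0.05003 without discodermolide replicate 1, discodermolide replicate 2 and AD32 replicate 2. Against A549 in DMSO the difference was 1.41 (SE 0.31, adjusted p = 0.112).

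MANBA, the lysosomal beta-mannosidase, was at 8.93 and 8.83 in A549 in discodermolide, 8.16 on the AD32 4E-BP1 array, 7.71, 7.64 and 7.40 in AD32, and 8.52, 8.19, 7.72 and 7.73 in A549 in DMSO. The discodermolide arrays were the highest and the AD32 arrays the lowest of the 10, although AD32 replicate 1 was close to the 2 lowest DMSO arrays. MANBA was 2.46-fold higher in A549 in discodermolide than in AD32 (log2 1.30, SE 0.25, adjusted p = 0.0222). This call was lost without discodermolide replicate 1 (adjusted p = 0.184), discodermolide replicate 2 (0.155), AD32 replicate 1 (0.0533) or AD32 replicate 2 (0.0591), and with a further quantile normalization (0.0581).

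GLB1, the lysosomal beta-galactosidase, was at 10.18 and 10.35 in A549 in discodermolide, 9.25 on the AD32 4E-BP1 array, 9.41, 9.13 and 8.91 in AD32, and 10.16, 9.11, 8.96 and 8.98 in A549 in DMSO. A549 DMSO replicate 1 was next to the lower discodermolide array, and the other DMSO arrays were well below both. The difference from A549 in DMSO was 0.97 (SE 0.33, adjusted p = 0.315), and it passed without that replicate, as above. From AD32 it was 1.12 (adjusted p = 0.129), or 0.00711 without the same DMSO replicate.

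**Figure D5:**
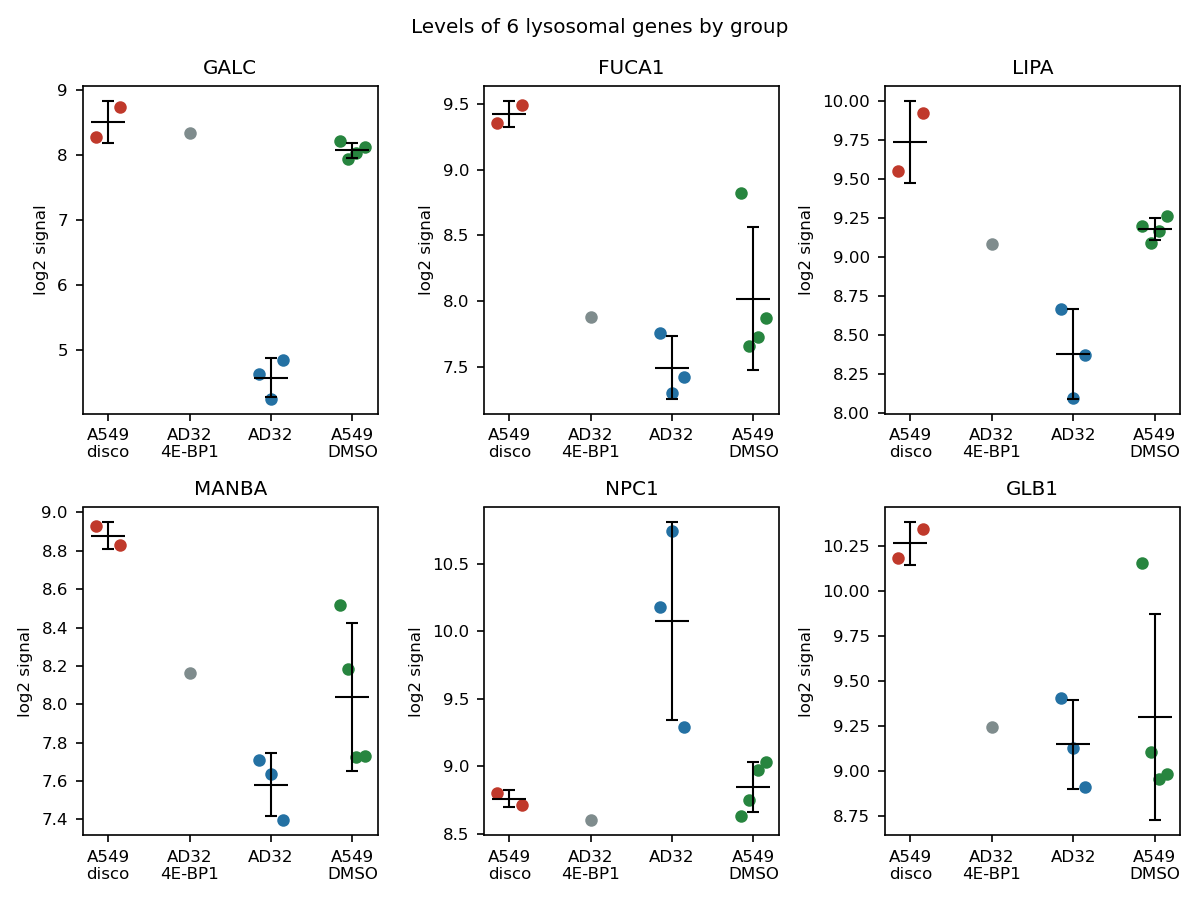
Log2 signal (y axes, each with its own range) of GALC, FUCA1, LIPA, MANBA, NPC1 and GLB1 in each sample (points) by group (x axis), with bars for the mean and SD of groups with over 1 array. GALC is low in AD32, NPC1 is high there, and A549 DMSO replicate 1 lies above the other DMSO arrays for FUCA1, MANBA and GLB1.

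The other glycosidases differed among themselves. HEXA, which degrades gangliosides, was at 10.40 and 10.22 in A549 in discodermolide, 10.21, 10.33 and 9.87 in AD32, and 10.31, 9.19, 9.06 and 9.20 in A549 in DMSO, with AD32 and the discodermolide arrays overlapping. NEU1, a sialidase, was at 9.89 and 9.82 in A549 in discodermolide, 9.03, 9.32 and 8.94 in AD32, and 9.51, 8.90, 8.92 and 8.99 in A549 in DMSO, with no overlap between the discodermolide arrays and the rest. GAA, which degrades glycogen, was at 9.45 and 9.19 in A549 in discodermolide and spread from 7.62 to 9.72 within A549 in DMSO. GUSB, the beta-glucuronidase, had its highest value in AD32 (10.28, 9.56 and 9.38, against 9.42, 8.93, 8.58 and 8.67 in A549 in DMSO). GLA, the alpha-galactosidase, varied widely within groups, at 7.67, 8.13 and 9.49 in AD32 and 8.12, 10.13, 9.44 and 9.28 in A549 in DMSO. MAN2B1, an alpha-mannosidase, was at 9.26 and 9.21 in A549 in discodermolide, 8.56, 7.54 and 8.72 in AD32 and 9.47, 8.82, 8.32 and 8.24 in A549 in DMSO. NAGLU, which acts on heparan sulphate, had its highest signal on A549 DMSO replicate 1 (9.04) and lay between 7.97 and 8.40 on the other 9 arrays. Of the 11 glycosidases, 10 had a positive difference between A549 in discodermolide and A549 in DMSO, with a median of 0.78, and for 5 the arrays did not overlap, where 15.2% of all genes had both discodermolide arrays above all DMSO arrays.

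The membrane proteins differed among themselves. LAMP2, a structural glycoprotein of the lysosomal membrane, was at 10.59 and 10.77 in A549 in discodermolide, 9.91 on the AD32 4E-BP1 array, 10.17, 10.13 and 9.92 in AD32, and 10.04, 9.94, 10.00 and 10.08 in A549 in DMSO. Its DMSO arrays were close together, and it had the smallest p of the list against A549 in DMSO (log2 0.67, SE 0.13, adjusted p = 0.086); against AD32 the difference was 0.60 (adjusted p = 0.0532). LAMP1, its relative with the row of E-boxes, was at 9.88 and 9.75 in A549 in discodermolide, 9.01, 9.23 and 9.57 in AD32 and 9.54, 9.41, 9.51 and 9.57 in A549 in DMSO. The discodermolide arrays were above the others, and the difference from A549 in DMSO was 0.31 (adjusted p = 0.542). SCARB2, a glycoprotein of the lysosomal membrane that also acts as a sorting receptor, was at 10.35 and 10.54 in A549 in discodermolide, 9.08, 9.53 and 9.04 in AD32, and 10.53, 9.72, 9.54 and 9.49 in A549 in DMSO. CD63, a tetraspanin of late endosomes, was higher in A549 in discodermolide (11.24 and 11.43) and in AD32 (10.90, 11.28 and 11.12) than on any DMSO array (10.65 to 10.73), with differences of 0.64 and 0.40 from A549 in DMSO (adjusted p = 0.119 and 0.112). MCOLN1, the lysosomal calcium channel, lay between 7.93 and 8.30 on all 10 arrays.

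NPC1, the membrane protein that exports cholesterol from lysosomes, had its highest signals in AD32. It was at 8.80 and 8.72 in A549 in discodermolide, 8.60 on the AD32 4E-BP1 array, 10.18, 10.75 and 9.29 in AD32, and 8.63, 8.75, 8.97 and 9.03 in A549 in DMSO. All 3 AD32 arrays were above every other array, with replicate 3 the nearest to them. NPC1 was 2.34-fold higher in AD32 than in A549 in DMSO (log2 1.23, SE 0.29, adjusted p = 0.0437), and without AD32 replicate 3 this was 3.07-fold (adjusted p = 0.00178). The call was lost without AD32 replicate 1 (adjusted p = 0.141), AD32 replicate 2 (0.123), A549 DMSO replicates 2, 3 or 4 (0.0993, 0.0978 and 0.0939) or either discodermolide array. It was also lost when only the groups compared were fitted (0.0808), and it held in 7 of the 18 alternative settings. Against AD32, A549 in discodermolide had a difference of -1.31 (SE 0.35, adjusted p = 0.0836), and without AD32 replicate 3 it was called 3.26-fold lower (adjusted p = 0.00379). NPC2, the soluble partner that hands cholesterol to NPC1, was at 10.36 and 10.75 in A549 in discodermolide, 10.48, 10.21 and 9.62 in AD32, and 9.81, 9.06, 9.76 and 9.88 in A549 in DMSO.

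LIPA, the acid lipase that frees cholesterol from its esters, was called in both comparisons with AD32. It was at 9.55 and 9.93 in A549 in discodermolide, 9.09 on the AD32 4E-BP1 array, 8.67, 8.10 and 8.37 in AD32, and 9.20, 9.09, 9.17 and 9.26 in A549 in DMSO. The 3 groups with several arrays did not overlap. LIPA was 2.57-fold higher in A549 in discodermolide than in AD32 (log2 1.36, SE 0.19, adjusted p = 0.00616), and this was lost without discodermolide replicate 2 (adjusted p = 0.0916). It was 1.74-fold lower in AD32 than in A549 in DMSO (log2 -0.80, SE 0.16, adjusted p = 0.0212), and this was lost without AD32 replicate 2 (adjusted p = 0.0794), A549 DMSO replicate 3 (0.0662) or A549 DMSO replicate 4 (0.0749).

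PSAP, the precursor of the saposins that help enzymes reach sphingolipids, was at 13.00 and 12.86 in A549 in discodermolide, 12.26, 12.07 and 11.33 in AD32, and 12.73, 11.86, 11.73 and 11.64 in A549 in DMSO. ASAH1, the acid ceramidase, was at 11.07 and 11.35 in A549 in discodermolide, 10.64, 10.49 and 9.50 in AD32, and 10.78, 9.96, 10.19 and 10.20 in A549 in DMSO. For both genes the discodermolide arrays were the highest, and the differences from A549 in DMSO were 0.94 and 0.93 (adjusted p = 0.347 and 0.34). PPT1, which removes palmitate from proteins, was at 9.66 and 9.92 in A549 in discodermolide, 10.16 on the AD32 4E-BP1 array, 9.28, 9.65 and 9.78 in AD32, and 9.71, 10.04, 10.48 and 10.37 in A549 in DMSO. It was the gene with the most negative difference between A549 in discodermolide and A549 in DMSO (-0.36, adjusted p = 0.652), and the others below 0 were NPC1 (-0.09) and NAGLU (-0.04).

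All 8 proteases had positive differences between A549 in discodermolide and A549 in DMSO (median 0.73), and for 4 the arrays did not overlap, against 15.2% of all genes. CTSD, an aspartic protease, was at 12.10 and 11.91 in A549 in discodermolide, 11.34, 10.55 and 11.12 in AD32, and 11.66, 10.84, 10.52 and 10.62 in A549 in DMSO. CTSL, a cysteine protease, was at 10.86 on both discodermolide arrays, at 10.14, 9.92 and 9.18 in AD32, and at 10.46, 9.57, 9.83 and 9.90 in A549 in DMSO. CTSA, a carboxypeptidase that also protects GLB1 and NEU1 in a complex, was at 11.58 and 11.63 in A549 in discodermolide, 11.10, 10.50 and 10.84 in AD32, and 11.41, 10.96, 10.81 and 10.91 in A549 in DMSO. For these 3 proteases the discodermolide arrays were above all others, with differences of 1.09, 0.92 and 0.58 from A549 in DMSO (adjusted p = 0.247, 0.297 and 0.356). CTSB, another cysteine protease, was at 11.51 and 11.55 in A549 in discodermolide, 10.89, 10.45 and 9.93 in AD32, and 11.55, 10.77, 10.63 and 10.68 in A549 in DMSO, so that DMSO replicate 1 equalled the discodermolide arrays.

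For the remaining proteases, A549 in discodermolide and AD32 overlapped. CTSS, a cysteine protease, was at 6.50 and 7.72 in A549 in discodermolide, 6.56 on the AD32 4E-BP1 array, 6.49, 7.15 and 6.95 in AD32, and 6.18, 5.71, 5.84 and 5.83 in A549 in DMSO. Both drug-exposed groups were above every A549 DMSO array, but so was the AD32 4E-BP1 array, which received DMSO. The differences of CTSS from A549 in DMSO were 1.22 in A549 in discodermolide and 0.97 in AD32 (adjusted p = 0.184 and 0.0853). CTSZ, a carboxypeptidase, was at 9.99 and 9.88 in A549 in discodermolide, 9.96, 9.97 and 10.14 in AD32, and 10.18, 9.38, 9.20 and 9.38 in A549 in DMSO. TPP1, a tripeptidyl peptidase, averaged 10.05 ± 0.42 in A549 in discodermolide (SD, n = 2), 9.94 ± 0.45 in AD32 (SD, n = 3) and 9.22 ± 0.55 in A549 in DMSO (SD, n = 4). CTSH, an aminopeptidase, averaged 7.37 ± 0.48, 7.28 ± 0.45 and 6.85 ± 0.51 in the same groups.

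The 4 sulphatases had the smallest median difference of the enzyme groups, 0.21 between A549 in discodermolide and A549 in DMSO. ARSA, which removes sulphate from sulphatide, the sulphated form of the lipid that GALC degrades, was at 8.59 and 8.15 in A549 in discodermolide, 7.63, 6.71 and 7.45 in AD32, and 8.001, 7.63, 7.32 and 7.17 in A549 in DMSO. The discodermolide arrays were the highest, with differences of 1.11 from AD32 and 0.84 from A549 in DMSO (adjusted p = 0.11 and 0.347). ARSB, GALNS and SGSH, which act on glycosaminoglycans, had differences of 0.15, 0.24 and 0.18 from A549 in DMSO, with arrays that overlapped. TFEB, the transcription factor of the list, had signals between 6.23 and 6.84 on the 10 arrays, and its difference between A549 in discodermolide and A549 in DMSO was 0.11 (SE 0.19, 95% interval -0.33 to 0.54, adjusted p = 0.919).

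The E-box content of the promoters was then set beside these differences. Between A549 in discodermolide and A549 in DMSO the median was 0.58 for the 9 genes with an E-box and 0.52 for the 16 whose windows held none. The 10 genes without windows could not be searched, and the median was 0.53 over the 25 with windows and 0.62 over all 35. For the 5 genes whose sequences are printed it was 0.31, with GAA at 0.96, CTSA at 0.58, LAMP1 at 0.31, GALNS at 0.24 and MCOLN1 at 0.19.

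The fourth comparison set AD32 4E-BP1 against AD32. As given above, the AD32 4E-BP1 array correlated with A549 DMSO replicates 2 to 4 about as closely as these did with each other. The lone AD32 4E-BP1 array was within the range of the AD32 arrays for 17 of the 35 genes (48.6%), against 48.4% of all genes, and within that of the A549 DMSO arrays for 26 (74.3%), against 69.0%, shares near those of all genes. It was nearer the DMSO mean than the AD32 mean for 29 (82.9%), against 65.2%. GALC was called higher in AD32 4E-BP1 than in AD32 (13.4-fold, log2 3.75, SE 0.27, adjusted p = 0.000331), 1 of 35 where 0.339% of all genes were called higher, and 0 were lower, where 0.58% were. At an unadjusted p of 0.05, 2 genes were higher and 2 lower, where 4.2% and 5.27% of all genes were. The test assumes that the lone array varies like the other groups, and GALC did not pass when only AD32 4E-BP1 and AD32 were fitted (adjusted p = 0.0596). The array was above all AD32 arrays for 9 genes and below them for 9, against 23.9% and 27.7% of all genes. NPC1 had a difference of -1.47 (adjusted p = 0.257), and without AD32 replicate 3 it was 3.64-fold lower in AD32 4E-BP1 (adjusted p = 0.0106). That fit called 1 gene higher and 1 lower, where 1.32% and 2.26% of all genes were, and the fit without A549 DMSO replicate 1 called 1 higher and 0 lower, where 0.607% and 0.826% were.

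Other genes of the lysosomal system were examined as lists drawn up by function. Of 19 other lysosomal hydrolases, 15 had a positive difference between A549 in discodermolide and A549 in DMSO (median 0.56), none was called, and 4 were called higher in A549 in discodermolide than in AD32, where 2.46% of all genes were. Without A549 DMSO replicate 1, 4 were called higher than in A549 in DMSO, where 2.53% of all genes were, and 7 higher than in AD32, where 4.46% were. CTSO, a cathepsin, was at 7.08 and 7.63 in A549 in discodermolide, 4.64, 4.43 and 4.85 in AD32, and 6.58, 5.88, 5.52 and 5.67 in A549 in DMSO, with no overlap between the 3 groups. It was 6.57-fold higher in A549 in discodermolide than in AD32 (adjusted p = 0.00203) and 2.41-fold lower in AD32 than in A549 in DMSO (adjusted p = 0.0233, or 0.0515 to 0.101 without AD32 replicates 1 or 2 or A549 DMSO replicates 2 or 4), with AD32 again close to or under the lower quartile, as for GALC. SIAE, a sialic acid esterase, and PCYOX1, which degrades prenylated cysteines, were 3.43-fold and 2.32-fold higher in A549 in discodermolide than in AD32 (adjusted p = 0.00228 and 0.00503), the call for PCYOX1 being lost without discodermolide replicate 1 (0.0710) or 2 (0.0518). In AD32, PCYOX1 and CTSC, a dipeptidyl peptidase, were 1.96-fold and 1.86-fold lower than in A549 in DMSO (adjusted p = 0.00481 and 0.0178), the call for CTSC being lost without AD32 replicates 1 or 2 or A549 DMSO replicates 3 or 4 (0.0524 to 0.0751).

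The subunits of the proton pump, the V-ATPase, had the same direction in A549 in discodermolide as the enzymes. Their mean over 17 genes was 10.09 and 10.07 in A549 in discodermolide, 9.47 on the AD32 4E-BP1 array, 9.70, 9.86 and 9.57 in AD32, and 9.47, 9.59, 9.69 and 9.72 in A549 in DMSO. The discodermolide arrays were above all others, and here A549 DMSO replicate 1 was the lowest of its group, unlike for the 35 genes. Of the 17, 15 had a positive difference between A549 in discodermolide and A549 in DMSO (median 0.55), for 11 the arrays did not overlap, against 15.2% of all genes, and none was called, with or without A549 DMSO replicate 1. ATP6V1F was 1.83-fold higher in A549 in discodermolide than in AD32 (adjusted p = 0.0471), which was lost without either discodermolide array, AD32 replicates 1 or 2, or A549 DMSO replicates 2, 3 or 4 (0.0549 to 0.307). ATP6V1D was 2.26-fold higher in AD32 than in A549 in DMSO (adjusted p = 0.0385), which was lost when any of the same arrays was left out (0.0567 to 0.148).

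The other lists had smaller medians between A549 in discodermolide and A549 in DMSO, with 0 calls in each. The median was 0.32 for 17 other membrane proteins, 0.14 for 17 genes that sort lysosomal enzymes, 0.24 for 18 genes of the MiT/TFE factors and of mTORC1 at the lysosome, and 0.39 for 25 autophagy genes. In the same order, 15, 13, 15 and 23 genes had a difference above 0, against 54% of all genes. The arrays did not overlap for 6, 3, 5 and 15 in the higher direction and 0, 1, 0 and 0 in the lower, against 15.2% and 7.71% of all genes. Without A549 DMSO replicate 1, 1 sorting gene, 1 gene of the MiT/TFE list and 2 autophagy genes were called higher, where 2.53% of all genes were, and the median of the sorting genes was 0.016. MITF, a relative of TFEB, was at 6.19 and 6.10 in A549 in discodermolide, 5.63 on the AD32 4E-BP1 array, 7.98, 8.24 and 7.36 in AD32, and 6.07, 5.60, 5.73 and 6.04 in A549 in DMSO. All AD32 arrays were above the rest. MITF was 3.99-fold higher in AD32 than in A549 in DMSO (adjusted p = 0.00119), 3.27-fold lower in A549 in discodermolide than in AD32 (adjusted p = 0.00866) and 4.68-fold lower in AD32 4E-BP1 than in AD32 (adjusted p = 0.0156). The call against A549 in discodermolide was lost without discodermolide replicate 1 (0.0763) or 2 (0.0989), and that against AD32 4E-BP1 without AD32 replicate 1 (0.0519) or with only these groups fitted (0.288). In AD32, LAPTM4B, a lysosomal membrane protein, was 2.18-fold lower than in A549 in DMSO (adjusted p = 0.0340), and ATG14 and VPS18, which act in autophagosome formation and in fusion with lysosomes, were 2.00-fold and 1.78-fold higher (adjusted p = 0.0204 and 0.0187). These calls were lost without AD32 replicates 1 or 2, A549 DMSO replicates 2, 3 or 4, or either discodermolide array for LAPTM4B (0.0516 to 0.126), without the same AD32 and DMSO arrays for ATG14 (0.0571 to 0.0873), and without AD32 replicate 2 or A549 DMSO replicates 3 or 4 for VPS18 (0.0567 to 0.0768). BECN1, a partner of ATG14, was 1.56-fold higher in A549 in discodermolide than in AD32 (adjusted p = 0.0485), which was lost when any array of these groups, or A549 DMSO replicate 2, 3 or 4, was left out (0.0781 to 0.315).

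None of the 28 genes of G2/M and mitosis passed the test in any of the 4 comparisons with all arrays in the fit. In AD32 against A549 in DMSO, 16 were called lower without AD32 replicate 3, where 4.45% of all genes were, and 6 without A549 DMSO replicate 1, where 6.14% were. In AD32 4E-BP1 against AD32, 1 was called higher without AD32 replicate 3, where 1.32% of all genes were. MKI67, a proliferation marker, was at 6.90 on both discodermolide arrays, 10.55 on the AD32 4E-BP1 array, 5.51, 5.87 and 9.93 in AD32, and 6.42, 10.63, 9.88 and 9.90 in A549 in DMSO, so that 1 array of AD32 and 1 of A549 in DMSO lay far from the rest of their groups. Its difference between A549 in discodermolide and A549 in DMSO was -2.31 (SE 1.38, adjusted p = 0.599). The median over the 28 genes was -2.45 for that comparison, -0.25 for A549 in discodermolide against AD32, -2.26 for AD32 against A549 in DMSO and 3.00 for AD32 4E-BP1 against AD32. Without AD32 replicate 3 the median for A549 in discodermolide against AD32 turned to 1.05, with 27 of the 28 genes above 0, that for AD32 against A549 in DMSO was -3.63, and that for AD32 4E-BP1 against AD32 was 4.30. Without A549 DMSO replicate 1 the medians against A549 in DMSO were -3.30 for A549 in discodermolide and -3.14 for AD32.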

How the data were processed

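The deposited values are log2 signals for 24308 probe sets on 10 arrays; per the submitters' processing notes the authors used Affymetrix Expression Console, with version and settings not given in the sources used here. The log2 scale was judged from the range of the values. The platform annotation gave the gene names, and the 1720 naming several genes and the 3326 unnamed ones were left out. The remaining 19262 covered 18279 genes, and for the 740 genes with several, the brightest on average was used.

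Groups were taken from the cell line and treatment in the labels. limma 3.58.1 in R 4.3.3 (lmFit and eBayes) was fitted over all 10 arrays in 4 groups with 6 residual degrees of freedom, with two-sided p-values adjusted by Benjamini-Hochberg over 18279 genes and a threshold of 0.05, and tested on simulated data. Python 3.11.15 was used for counts, motif searches and figures. Counts of genes whose arrays do not overlap are descriptions. The genes and lists were chosen with earlier results of these data known, and nothing here is independent support for those results. Named genes were the 35, EIF4EBP1, MKI67 and, of each companion list, up to 3 genes per comparison ranked by p among genes past the threshold. Gene order and promoter windows came from RefSeq tables of GRCh38.p14, with all windows of a gene used.

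Settings varied one at a time were quantile normalization of the deposited values, centring of arrays on the median, leaving out the dimmest 33.3% of genes, averaging the probe sets of a gene, a trended prior, array weights, fitting only the groups compared, a replicate block, averaging A549 DMSO replicates 3 and 4, and leaving out each replicate.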

Additional observations from a re-analysis of the deposited data

Results flagged for a closer look

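Within A549 in DMSO, 1 array lay far from the other 3 for 9 of 39 values examined, by Dixon's gap criterion. Chance meets it in about 1 in 20 groups of independent values, but these values share the same 4 arrays and are not separate trials. The criterion was not applied to all genes, of which 41.5% had A549 DMSO replicate 1 above the other DMSO arrays and 35.2% below. A549 DMSO replicate 1 was high for CTSB (11.55), HEXA (10.31), GLB1 (10.16), NEU1 (9.51), NAGLU (9.04), EIF4EBP1 (10.23) and the mean of the 35 lysosomal genes (9.42), and low for the mean of the G2/M genes (6.77). A549 DMSO replicate 2 was low for NPC2 (9.06). Groups of 3 or fewer arrays were not examined in this way.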

How the results depend on the processing

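Over 18 alternative settings, 2380 of 2485 values for single lysosomal genes stayed on their side of the threshold, 57 of them with a change of sign between values that were not called, 79 gained a call (48 of them with array weights and 24 without A549 DMSO replicate 1), 26 lost one, and 0 called values reversed. For A549 in discodermolide against A549 in DMSO, array weights gave 24 genes higher and 1 lower (14.8% and 10.2% of all genes), and leaving out 1 replicate gave 0 to 11 higher (11 without A549 DMSO replicate 1) and 0 lower. For A549 in discodermolide against AD32, array weights gave 17 higher and 1 lower (6.48% and 3.74%), and leaving out 1 replicate gave 1 to 13 higher and 0 to 1 lower (1, NPC1, without AD32 replicate 3). For AD32 against A549 in DMSO, array weights gave 7 higher and 4 lower (11.1% and 11.9%), and median centring 0 higher (3.3% of all genes). Averaging A549 DMSO replicates 3 and 4 (the most alike pair of arrays) gave 0 higher and 1 lower (1.84% and 1.03%). Leaving out 1 replicate gave 0 to 4 higher (1.79% to 6.3%) and 1 to 3 lower (1.01% to 6.14%). For AD32 4E-BP1 against AD32, array weights gave 1 lower (3.77%), a fit of the compared groups alone 0 higher, and leaving out 1 replicate 1 higher and 0 to 1 lower. Over all genes, leaving out 1 A549 DMSO or AD32 replicate called 0.0602% to 2.53% higher and 0.00547% to 0.99% lower for A549 in discodermolide against A549 in DMSO. For A549 in discodermolide against AD32 these shares were 1.38% to 4.46% and 0.799% to 2.56%. The cause of these shifts was not tested. With the replicate number as a block, AD32 against A549 in DMSO gave 0 higher and 1 lower, where 2.11% and 1.44% of all genes were called. In that fit the adjusted p was 0.0862 for NPC1, 0.0969 for LIPA, 0.0688 for CTSO, 0.0637 for ATP6V1D and 0.0660 for VPS18. For BECN1 in A549 in discodermolide against AD32 it was 0.138. Deviations of 7 same-numbered pairs correlated at -0.264 to 0.677, so the numbers were not taken to pair samples, and the AD32 4E-BP1 array has no number to block on. Signals near the lower quartile, such as GALC and CTSO in AD32, limit what their folds measure, and groups of 1 or 2 arrays limit every comparison with them.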
